A study of Mus musculus with 12 samples.

Results

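Kruppel-like factors (KLFs) are DNA-binding proteins with zinc fingers at the C-terminal end that recognise CACCC boxes and GC boxes, motifs they share with the SP factors. They are described here across 4 groups of primary mouse embryonic fibroblasts (MEFs). The members are the 10 genes Klf2, Klf3, Klf4, Klf5, Klf6, Klf7, Klf9, Klf10, Klf13 and Klf15, out of 12394 genes with a probe set of a single symbol on the array. Every probe set that the platform annotation maps to 1 of these symbols alone was taken, 27 in all. Of these, 20 passed the filter on low signals and were tested, which left 9 of the 10 genes with a tested probe set. A KLF binds through its fingers, and its N-terminal part decides whether it activates or represses. In fibroblasts and other stromal cells, KLFs are known as fast-responding regulators of growth arrest, inflammation and matrix genes. Several are themselves induced by serum, stress or TGF-beta.

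The groups were Rb null MEFs exposed to 16 µM cisplatin for 24 h, wildtype MEFs exposed in the same way, untreated Rb null MEFs and untreated wildtype MEFs. Rb null cells lack the retinoblastoma gene Rb1, and cisplatin is a platinum compound that crosslinks DNA. All cells came from embryos of day 13.5 and were used at passage 2. Each group was 1 RNA sample hybridized to 3 Affymetrix arrays, per the study's design, so replicate error here is that of repeated hybridization, and p-values do not cover differences between cultures or embryos. Values are MAS5 signal intensities on a linear scale, given as mean ± SD with n = 3 hybridizations per group throughout, and log2 differences are given ± standard error. A gene or probe set was called higher, lower, risen or fallen when its Benjamini-Hochberg adjusted p in limma was under 0.05 and it differed by at least 1.5-fold (log2 0.58). Signals of different probe sets cannot be compared as levels.

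Arrays correlated at 0.981 to 0.992 within groups and at 0.806 to 0.952 between groups. The Rb1 probe set gave 74.0 to 102.5 on cisplatin-treated Rb null arrays, 344 to 452 on cisplatin-treated wildtype arrays, 85.3 to 104.9 on untreated Rb null arrays and 419.9 to 487.5 on untreated wildtype arrays; whether it lies in the deleted part is not known. The untreated wildtype arrays stood apart in sex-linked transcripts. Their signals of the Y-linked Eif2s3y were 469.7 to 485, against at most 17.8 on the other arrays, and their Xist mean was 132, against 2379 to 3443. Genotype and sex of the embryos therefore cannot be told apart in the untreated genotype comparison, nor sex and drug in the wildtype cisplatin comparison. With 1 RNA sample per group, culture cannot be told apart from genotype or drug in any comparison. The intermediate filament gene Vim, a fibroblast marker, had group means of 15701 to 16586. The 11 fibroblast markers summed to 40154 to 42738 on cisplatin-treated Rb null arrays and 52212 to 55048 on cisplatin-treated wildtype arrays. On untreated arrays they summed to 66654 to 68747 in Rb null and 68965 to 73515 in wildtype cells. Bright markers weigh most in these sums. Taken singly, 6 fell and 0 rose after cisplatin in Rb null cells, beside 20.3% and 16.6% of all tested genes. In wildtype cells 5 fell and 3 rose (Pdgfra, Lum and Dcn), beside 12.7% and 14.8%. The part of fibroblast markers in the KLF values was not tested. The defining endothelial markers Pecam1 and Cdh5 had group means of 26.3 to 54.9 and the epithelial Epcam and Cdh1 had signals of 4.3 to 41.7 over the 12 arrays, all below the filter. Of the 8 endothelial markers 3 were tested. Eng, which fibroblasts also express, was higher in untreated Rb null than in untreated wildtype cells (log2 0.66 ± 0.10), Cd34 was called higher after cisplatin in wildtype cells (means of 195 treated and 88.8 untreated) with a called difference of the effects (adjusted p = 0.044), and Kdr was not called (means of 147 to 223). The 8 summed to 932 to 1084 on cisplatin-treated Rb null and 894 to 1014 on cisplatin-treated wildtype arrays, against 1008 to 1220.5 on untreated Rb null and 835 to 1055 on untreated wildtype arrays, and their part in the Klf2 values was not tested.

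Among the 9 tested genes, 4 were called in the cisplatin comparison of Rb null cells (Klf4 and Klf5 higher, Klf2 and Klf7 lower), beside 36.9% of the 7909 genes tested (16.6% higher, 20.3% lower). In wildtype cells 2 were called after cisplatin (Klf4 and Klf5, both higher), beside 27.5% of all genes (14.8% higher, 12.7% lower). Rb null cells differed from wildtype cells in 3 of the 9 after cisplatin (Klf4 and Klf5 higher, Klf2 lower), beside 23.0% (9.71% higher, 13.3% lower), and in 1 without the drug (Klf4, higher), beside 13.1% (8.09% higher, 5.04% lower). The cisplatin effect differed between genotypes for 2 of the 9 (Klf2 and Klf4, both lower in Rb null), beside 23.7% (8.70% higher, 15.0% lower). These counts were near the shares over all genes. By probe set, 8 of the 20 were called for cisplatin in Rb null cells (36.7% of all tested probe sets), 5 in wildtype cells (26.7%), 5 for genotype after cisplatin (22.1%), 3 without it (12.4%) and 5 for the difference of the effects (23.1%). The median log2 differences of the 9 were 0.37 for cisplatin in Rb null cells and 0.34 for cisplatin in wildtype cells, beside medians of all tested genes of -0.017 and 0.057. For genotype the medians were 0.055 after cisplatin and 0.093 without it, beside -0.051 and -0.0093. For the difference of the effects they were 0.027 and -0.075.

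**Figure D1:**
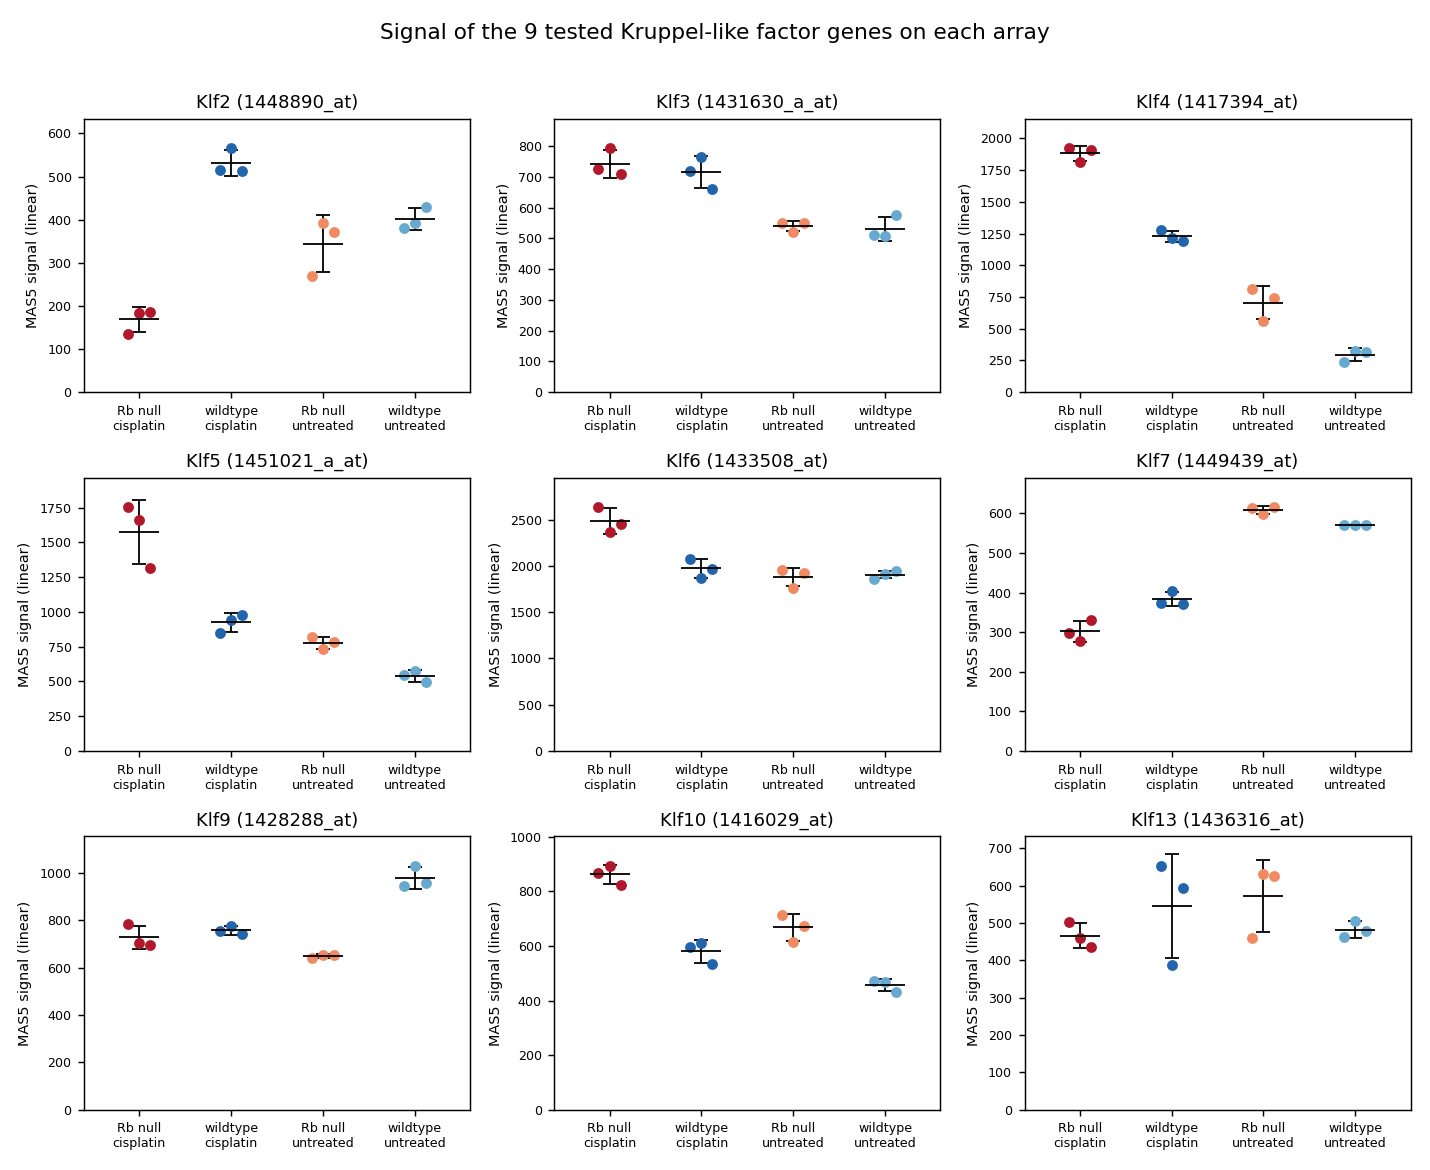
MAS5 signal (linear, y axis) on each of the 12 arrays for the 9 tested genes, 1 probe set per gene; points are arrays, bars are group means and whiskers are SD (n = 3). Klf4, Klf5, Klf6 and Klf10 each have their own highest signals, and Klf2 and Klf7 their lowest, on the cisplatin-treated Rb null arrays.

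Upstream sequences of the called members are shown because KLF and SP proteins bind such promoters themselves. RefSeq promoters (GRCm38.p6) were on hand for 8 of the 10 members; sequences of Klf5 and Klf10 are not shown. The 250 bases before the start site are printed 5′ to 3′ on the gene's strand, with GC boxes (GGGCGG) and CACCC boxes on either strand in capitals; both motifs may overlap. Klf2 lies at chr8:72318812-72319061 (plus strand), Klf4 at chr4:55532476-55532725 (minus) and Klf7 at chr1:64121390-64121639 (minus).
Klf2: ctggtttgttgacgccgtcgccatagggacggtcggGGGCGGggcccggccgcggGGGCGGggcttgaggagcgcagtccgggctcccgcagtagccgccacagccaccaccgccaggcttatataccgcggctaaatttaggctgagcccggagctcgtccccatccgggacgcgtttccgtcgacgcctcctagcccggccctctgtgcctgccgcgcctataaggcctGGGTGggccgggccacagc
Klf4: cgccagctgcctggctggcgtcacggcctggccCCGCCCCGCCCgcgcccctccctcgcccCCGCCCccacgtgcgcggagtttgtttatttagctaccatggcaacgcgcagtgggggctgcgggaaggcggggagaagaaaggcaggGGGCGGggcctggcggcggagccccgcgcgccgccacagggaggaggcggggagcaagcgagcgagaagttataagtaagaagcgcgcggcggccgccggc
Klf7: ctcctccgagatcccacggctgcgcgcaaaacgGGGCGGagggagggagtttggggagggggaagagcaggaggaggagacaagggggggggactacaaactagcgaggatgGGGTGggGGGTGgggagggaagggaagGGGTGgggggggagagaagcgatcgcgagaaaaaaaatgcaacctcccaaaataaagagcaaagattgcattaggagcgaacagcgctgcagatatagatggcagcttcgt
The Klf2 window held 2 GC boxes and 1 CACCC box, the Klf4 window 4 GC boxes and 0 CACCC boxes, and the Klf7 window 1 GC box and 3 CACCC boxes. Of 32851 promoter windows of this length, 32.7% held a GC box and 52.0% a CACCC box on either strand. The Klf2 window also held a match to the MEF2 consensus, ctaaatttag, from base -118 to -109, which 2.92% of windows hold and the windows of the 7 other members did not. A MEF2 site in the Klf2 promoter is known as the route by which the kinase ERK5 drives Klf2. E2F sites, searched as TTTGGCGC, TTTCCCGC, TTTCGCGC and TTTGCCGC on either strand, occurred in 1.86% of windows and in 0 of the 8 members' windows. These matches describe letters in a window and were not tested as binding sites.

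Klf2, known for quiescence of T cells and endothelium and for restraining inflammatory activation of macrophages, was the member with the largest dependence on genotype after cisplatin. Its probe set (1448890_at) gave signals of 135, 185 and 187 on the cisplatin-treated Rb null arrays and 516, 566 and 513 on the cisplatin-treated wildtype arrays. The untreated arrays gave 269.9, 393 and 371 in Rb null cells and 380.0, 393 and 429.8 in wildtype cells. The treated Rb null arrays were thus the lowest and the treated wildtype arrays the highest of the 12, without overlap with any other group, whereas the untreated groups overlapped. Klf2 was 3.05-fold lower in Rb null than in wildtype cells after cisplatin (log2 -1.61 ± 0.14, adjusted p = 6.09e-07). Within Rb null cells it fell after cisplatin by 0.98 on the log2 scale (± 0.14, adjusted p = 3.12e-05). In wildtype cells the difference was log2 0.40 ± 0.14, which passed on adjusted p (0.0304) but not on size. The difference between these effects was log2 -1.38 ± 0.20 (adjusted p = 0.00012). Without cisplatin the genotypes differed by log2 -0.23 ± 0.14 (95% interval -0.54 to 0.08), which did not pass.

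Macrophage markers moved in a partly similar order, and Klf2 is expressed in macrophages. The 10 listed markers summed to 5670 to 5888 on cisplatin-treated Rb null arrays and 10845 to 11390 on cisplatin-treated wildtype arrays. On untreated arrays they summed to 6885 to 7207 in Rb null and 4997 to 5333 in wildtype cells. In the genotype comparison after cisplatin 7 of the 10 were lower and 0 higher, beside 13.3% and 9.71% of all tested genes. The lysozyme gene Lyz2 was among those lower (log2 -1.93 ± 0.078). Of the defining markers, the macrophage surface gene Adgre1 was lower (log2 -1.05 ± 0.14) and the receptor gene Csf1r differed by log2 0.14 ± 0.069 without passing. The untreated wildtype arrays had the lowest marker sums and Klf2 signals of 380.0 to 429.8, so the order of the sums differs there. Bright markers weigh most in these sums. Taken singly, Adgre1, Ctss, C1qa, C1qb, Tyrobp and Fcer1g had their lowest signals on treated Rb null arrays, as Klf2 did. Lyz2 overlapped there with untreated wildtype arrays, and Cd68, Csf1r and Cd14 were lower on untreated arrays of both genotypes. The part of these cells in the Klf2 values was not tested. In such bulk RNA, fewer cells of a type and less RNA per cell cannot be told apart.

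**Figure D2:**
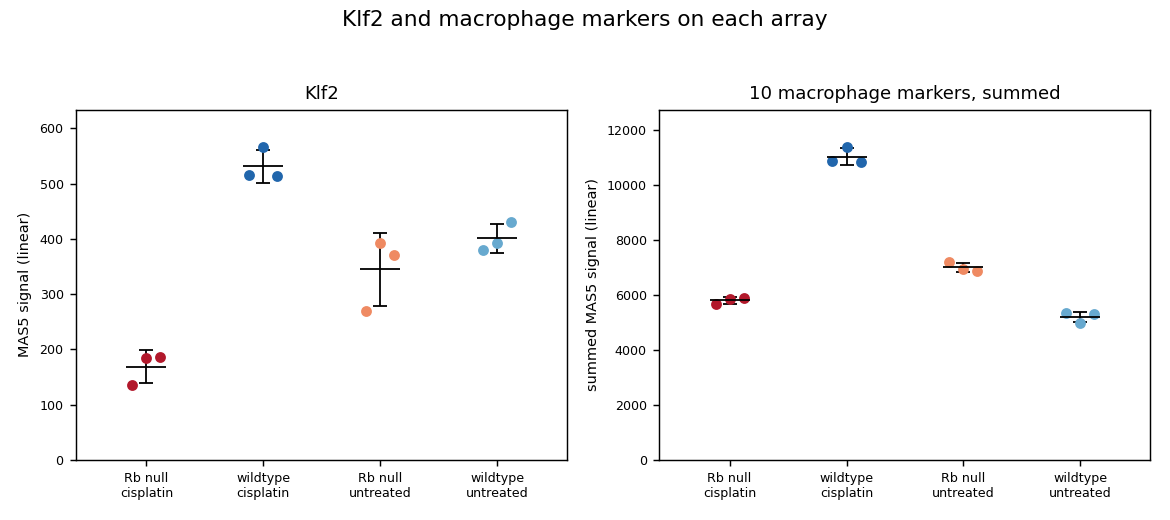
Left, MAS5 signal of Klf2 on each array; right, summed MAS5 signal of the 10 macrophage markers on each array (both linear; points are arrays, bars means, whiskers SD, n = 3). Both are highest on cisplatin-treated wildtype arrays, where the marker sums reach 11390. The untreated wildtype arrays have the lowest sums but not the lowest Klf2 signals. Bright markers weigh most in the sums.

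Klf4, a reprogramming factor that in many cell types goes with cell cycle arrest and that is induced by DNA damage through p53, showed the widest range in the family. On probe set 1417394_at its signals were 1924, 1812 and 1911 on the cisplatin-treated Rb null arrays and 1277, 1214 and 1194 on the cisplatin-treated wildtype arrays. Untreated Rb null arrays gave 809.7, 563 and 745, and untreated wildtype arrays gave 238, 328 and 319.9. The 4 groups did not overlap, and the order from highest to lowest was treated Rb null, treated wildtype, untreated Rb null and untreated wildtype. Klf4 rose after cisplatin 2.67-fold in Rb null cells (log2 1.42 ± 0.13, adjusted p = 2.45e-07) and 4.09-fold in wildtype cells (log2 2.03 ± 0.13, adjusted p = 7.97e-09). It was higher in Rb null than in wildtype cells after cisplatin (1.53-fold, log2 0.61 ± 0.13, adjusted p = 0.00127) and without it (2.34-fold, log2 1.23 ± 0.13, adjusted p = 4.52e-06). The other Klf4 probe set (1417395_at) passed in the same 4 comparisons, with cisplatin effects of log2 1.26 ± 0.13 in Rb null and 1.42 ± 0.13 in wildtype cells and genotype differences of log2 0.76 ± 0.13 with and 0.92 ± 0.13 without the drug.

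The difference between the cisplatin effects on Klf4 depended on the probe set. On the brighter probe set the difference of the effects was log2 -0.61 ± 0.18 (adjusted p = 0.0169). On the other it was -0.16 ± 0.18 (adjusted p = 0.524, 95% interval -0.54 to 0.23). The call was also lost, on size, when untreated Rb null array 1 (log2 -0.51), untreated Rb null array 3 (-0.57) or untreated wildtype array 1 (-0.47) was left out, and under median centring (-0.51).

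Klf5, which promotes proliferation in epithelium and smooth muscle and often acts opposite to Klf4, rose with it here. Probe set 1451021_a_at gave 1756, 1659 and 1314 on cisplatin-treated Rb null arrays and 852, 943 and 978 on cisplatin-treated wildtype arrays, against 818.5, 733 and 785 on untreated Rb null and 546, 577 and 493 on untreated wildtype arrays. Every treated array was above every untreated array, and every Rb null array above every wildtype array of the same treatment. Klf5 rose by log2 1.00 ± 0.10 in Rb null cells (adjusted p = 1.05e-06) and by 0.77 ± 0.10 in wildtype cells (adjusted p = 2.24e-05). It was higher in Rb null cells after cisplatin (log2 0.75 ± 0.10, adjusted p = 3.7e-05), while the untreated difference of 0.52 ± 0.10 (adjusted p = 0.00136) was below the 1.5-fold minimum. The dimmer probe set 1451739_at also passed for genotype after cisplatin (log2 0.69 ± 0.16). Its cisplatin effects, however, were log2 0.57 ± 0.16 in Rb null cells (adjusted p = 0.0067), below the minimum size, and 0.024 ± 0.16 in wildtype cells (adjusted p = 0.914), so the rise of Klf5 after cisplatin rests on 1 of 2 probe sets.

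Klf4 and Klf5 are also epithelial genes. The 6 epithelial markers summed to 554 to 608 on cisplatin-treated Rb null arrays and 748 to 940.0 on cisplatin-treated wildtype arrays, against 318 to 462 on untreated Rb null and 407.5 to 585 on untreated wildtype arrays. Of the 2 tested, the simple keratin gene Krt18 was called higher after cisplatin in both genotypes. Its signals averaged 209.9 ± 3.03 in treated Rb null and 466 ± 32.8 in treated wildtype cells, against 33.2 to 52.9 on untreated Rb null and 50.8 to 110.9 on untreated wildtype arrays. The untreated signals were in the range of probe sets below the filter, so no exact fold is given. After cisplatin Krt18 was lower in Rb null than in wildtype cells (log2 -1.11 ± 0.23), where Klf4 was higher. The part of epithelial cells in the Klf4 and Klf5 values was not tested.

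Klf6, a widely expressed early-response factor that activates Cdkn1a and TGF-beta pathway genes, had no call on its brightest probe set. On 1433508_at it averaged 2485 ± 139 in treated Rb null and 1972 ± 104 in treated wildtype cells, against 1879 ± 101 in untreated Rb null and 1905 ± 40.5 in untreated wildtype cells. The treated Rb null arrays lay above all others, which did not separate from each other. The cisplatin effect was log2 0.40 ± 0.066 in Rb null cells (adjusted p = 9.29e-05) and 0.048 ± 0.066 in wildtype cells (adjusted p = 0.567), and the difference of 0.35 ± 0.094 (adjusted p = 0.00858) was below the minimum size. Its 3 tested probe sets spread widely: for cisplatin in Rb null cells they ran from log2 0.079 on 1418280_at to 0.69 ± 0.11 on 1427742_a_at, the only one called. In wildtype cells the same probe sets gave log2 -0.059 ± 0.069 and 0.47 ± 0.11 (adjusted p = 0.00171), the latter below the minimum size. The difference of the effects on them was log2 0.14 ± 0.097 (adjusted p = 0.29) and 0.22 ± 0.15 (adjusted p = 0.276). All 3 were positive for genotype after cisplatin (log2 0.33 to 0.47), none of them called.

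Klf7, which is best known for neuronal outgrowth and for restraining fat cell differentiation, fell in Rb null cells. Probe set 1449439_at gave 297, 278 and 331 on cisplatin-treated Rb null and 373, 404 and 372.5 on cisplatin-treated wildtype arrays. The untreated arrays gave 613, 598 and 617 in Rb null and 572, 570.5 and 570.2 in wildtype cells. Each treated array was below each untreated one, and the genotypes did not overlap at either treatment. Klf7 fell by 0.99 on the log2 scale in Rb null cells (± 0.083, adjusted p = 9.19e-08). The value in wildtype cells, log2 -0.56 ± 0.083 (adjusted p = 4.62e-05), was just under the 1.5-fold minimum and passed it without cisplatin-treated wildtype array b (-0.60). The effects differed by log2 -0.43 ± 0.12 (adjusted p = 0.0104), below the minimum size. Probe set 1419354_at was called as lower in both genotypes (log2 -0.85 ± 0.16 in Rb null, -0.59 ± 0.16 in wildtype), but 1419356_at gave -0.11 ± 0.11 in Rb null and 0.13 ± 0.11 in wildtype cells and was not called. A further probe set lay below the filter, with group means of 26.5 in treated Rb null and 30.6 in treated wildtype cells, and of 73.7 in untreated Rb null and 44.5 in untreated wildtype cells.

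**Figure D3:**
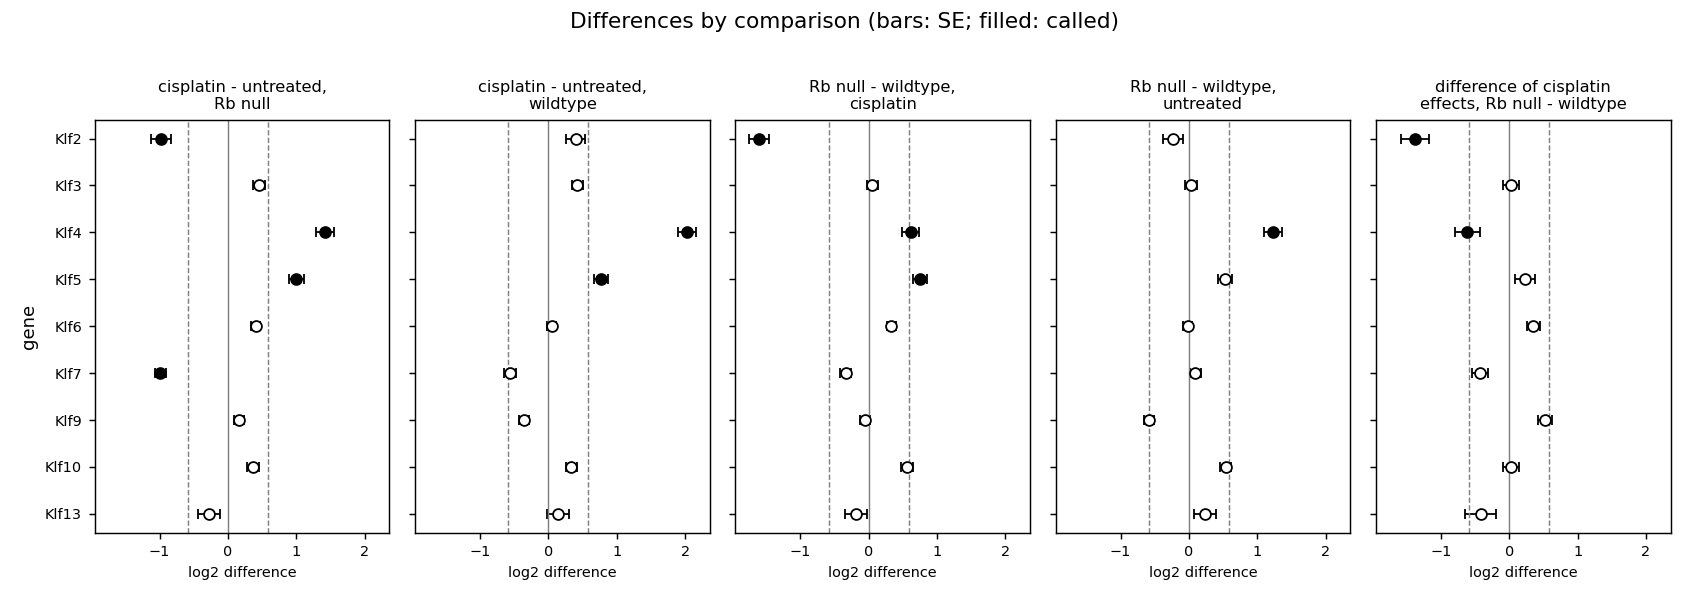
log2 differences (x axis) of the 9 tested genes (y axis) in the 5 comparisons, with bars for SE, filled points for called genes and dashed lines at 1.5-fold. Klf4 lies at 1.42 for cisplatin in Rb null cells and at 2.03 in wildtype cells, and Klf2 at -0.98 and 0.40.

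Klf3, a repressor that recruits CtBP, had values after cisplatin that passed on adjusted p but not on size. Its brightest probe set (1431630_a_at) averaged 743 ± 45.1 in treated Rb null and 715 ± 52.2 in treated wildtype cells, against 540.5 ± 15.9 in untreated Rb null and 531 ± 38.0 in untreated wildtype cells. Treated and untreated arrays did not overlap, while the genotypes overlapped at both treatments. The cisplatin effect was log2 0.45 ± 0.084 in Rb null and 0.42 ± 0.084 in wildtype cells, and the difference between them was 0.027 ± 0.12 (95% interval -0.23 to 0.28). Probe set 1429360_at went the other way, with log2 -0.43 ± 0.12 in Rb null and -0.22 ± 0.12 in wildtype cells, neither of them called. The remaining one, 1421604_a_at, gave log2 0.16 ± 0.098 in Rb null (adjusted p = 0.174) and 0.28 ± 0.098 in wildtype cells (adjusted p = 0.0254), so 2 of 3 were positive and none was called. The direction for Klf3 thus depends on the probe set.

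Klf9, Klf10 and Klf13 repress through the corepressor SIN3A. Klf9, a hormone- and glucocorticoid-responsive gene, was the member whose untreated wildtype arrays stood highest. Probe set 1428288_at gave 783, 706 and 694 on cisplatin-treated Rb null and 755, 775 and 739.8 on cisplatin-treated wildtype arrays, against 640.2, 652 and 655 on untreated Rb null and 943, 1030.3 and 957 on untreated wildtype arrays. The treated genotypes overlapped and the untreated ones did not. The untreated genotype difference of log2 -0.58 ± 0.073 (1.4955-fold lower, adjusted p = 2.28e-05) stopped just short of the 1.5-fold minimum. It passed that minimum without untreated Rb null array 3 (log2 -0.59), untreated wildtype array 1 (-0.61) or untreated wildtype array 3 (-0.59), and on probe set 1428289_at (log2 -0.76 ± 0.11, adjusted p = 9.87e-05).

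The cisplatin effects on Klf9 had opposite signs in the genotypes on all 3 tested probe sets. They were log2 0.16 to 0.58 in Rb null cells and -0.51 to -0.36 in wildtype cells, none of them called by itself. The difference between the effects was called on 1428289_at (log2 0.97 ± 0.16, adjusted p = 0.000244) and 1456341_a_at (0.84 ± 0.15, adjusted p = 0.000482), and on 1428288_at it was 0.52 ± 0.10 (adjusted p = 0.00118), below the minimum size. This difference uses the untreated wildtype group. The genotype difference after cisplatin, which does not, was log2 -0.058 ± 0.073, 0.22 ± 0.11 and 0.28 ± 0.10 on the 3 probe sets, none of them called. The 4 other Klf9 probe sets had group means of 12.9 to 58.4, below the filter.

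Klf10, a TGF-beta-inducible gene that represses Smad7, had a near-parallel pattern in both genotypes. Its single probe set (1416029_at) gave 869, 895 and 824 on cisplatin-treated Rb null and 598, 613 and 533.5 on cisplatin-treated wildtype arrays, against 715, 614 and 675 on untreated Rb null and 473, 469 and 431 on untreated wildtype arrays. The Rb null arrays were above the wildtype arrays of the same treatment without overlap. Genotype differences were log2 0.56 ± 0.085 after cisplatin (adjusted p = 8.16e-05) and 0.53 ± 0.085 without it (adjusted p = 0.000221), and cisplatin effects were 0.37 ± 0.085 in Rb null and 0.34 ± 0.085 in wildtype cells. None reached 1.5-fold. The genotype difference did so after cisplatin without cisplatin-treated Rb null array c (log2 0.59) or cisplatin-treated wildtype array b (0.60), under quantile normalization (0.59) and under median centring (0.63), and without the drug when untreated Rb null array 2 was left out (0.59). The cisplatin effects differed by 0.027 ± 0.12 (95% interval -0.23 to 0.29).

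Klf13, which was described as a regulator of the chemokine gene Ccl5 in T cells, had probe sets that disagreed. The brighter one over all arrays, 1436316_at, averaged 467 ± 32.7 in treated Rb null and 545 ± 139 in treated wildtype cells, against 573 ± 96.4 in untreated Rb null and 483 ± 21.8 in untreated wildtype cells. Its groups overlapped in every comparison and 0 of its differences were called, in limma; 0 had an unadjusted p under 0.05 for genotype or for cisplatin. On 1432543_a_at, by contrast, the arrays gave 235, 281 and 167 in treated Rb null and 333, 435 and 250.4 in treated wildtype cells, against 696.5, 805 and 783 in untreated Rb null and 582.5, 562 and 591 in untreated wildtype cells. All treated arrays were below all untreated ones. This probe set was 3.30-fold lower after cisplatin in Rb null cells (log2 -1.72 ± 0.18, adjusted p = 1.08e-06) and 1.72-fold in wildtype cells (log2 -0.79 ± 0.18, adjusted p = 0.00206), and the difference of log2 -0.94 ± 0.26 was called (adjusted p = 0.0105). On 1436316_at that difference was -0.42 ± 0.23, and -0.64 and called without cisplatin-treated wildtype array b. The third probe set was below the filter.

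Klf15, a regulator of glucose and lipid metabolism in muscle, liver and fat, was at 2.2 to 6.5 on all 12 arrays and was not tested. Values this low have no order, and detection calls were not used here.

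**Figure D4:**
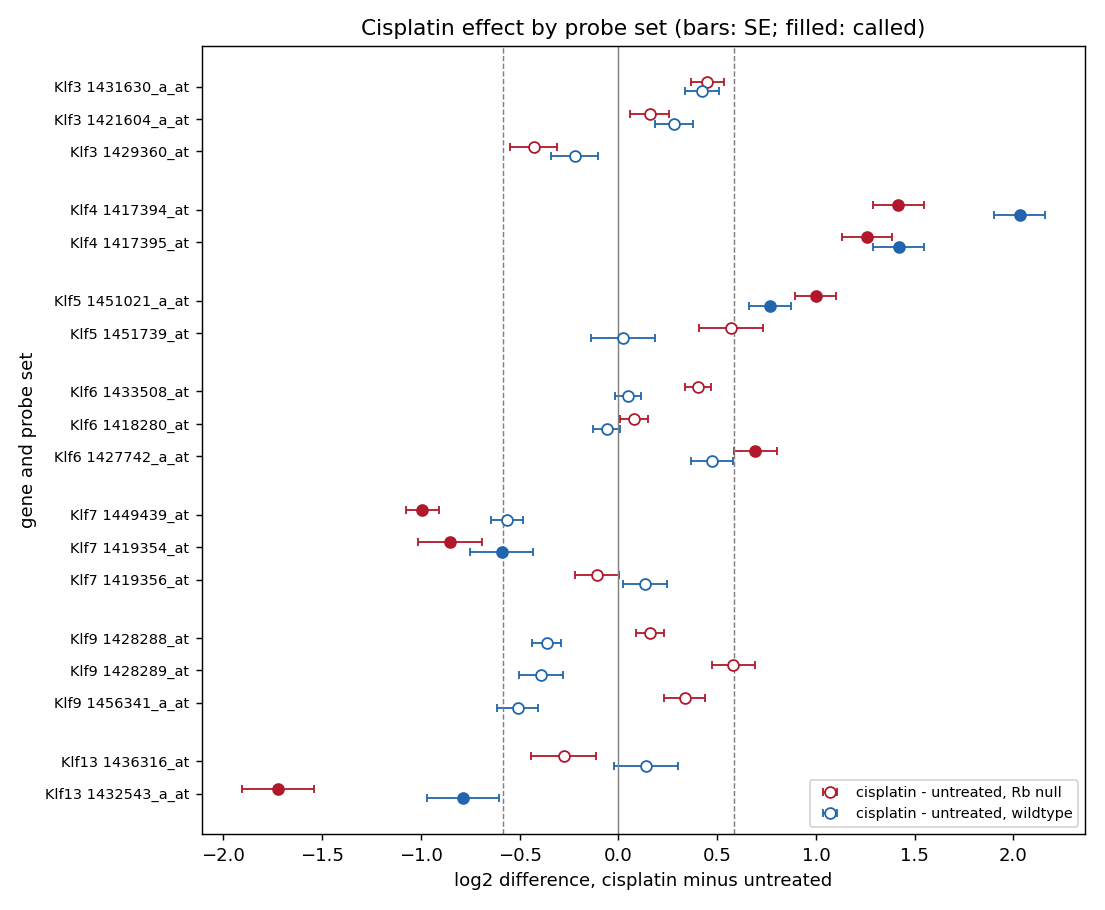
log2 cisplatin effect (x axis) for each tested probe set of the 7 genes with more than 1 (y axis), in Rb null (red, upper point) and wildtype cells (blue, lower point), with bars for SE and filled points for called values. The 2 Klf4 probe sets lie at 1.26 and above in all cases, whereas those of Klf13 lie at -1.72 and -0.28 in Rb null cells.

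The pattern of the 3 genes with the widest range of group means was set beside all other genes, as Pearson's r over the 12 arrays with 7803 genes outside the family. The 12 points share 4 groups, and the values are a description. Nearest to Klf4 were the lipid transfer gene Pltp (0.988), Crip2 (0.986), the cysteine dioxygenase gene Cdo1 (0.985) and the p53-binding mitotic gene Gtse1 (0.983). Pltp averaged 2252 in treated Rb null and 1123 in treated wildtype cells, against 587 in untreated Rb null and 242 in untreated wildtype cells, the same order as Klf4. Klf2 was nearest to Spin1 (0.965), Rilpl2 (0.964), the ubiquitin ligase gene Fbxo6 (0.963) and the acyl-CoA thioesterase gene Acot9 (0.957). Pearson's r does not weigh the size of a change. Spin1 averaged 1614 in treated Rb null and 1955 in treated wildtype cells. Its untreated means were 1891 in Rb null and 1877 in wildtype cells, a narrower span than that of Klf2. Klf5 was nearest to the nuclear pore gene Nup54 (0.985), the mitochondrial DNA factor Tfam (0.978), Ndufab1 (0.977) and the sialic acid synthesis gene Gne (0.976).

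The related SP and KLF genes were measured for 10 of the 14 listed, of which 4 were tested. Sp1, the ubiquitous GC box activator, was higher in Rb null cells after cisplatin (log2 0.61 ± 0.090, adjusted p = 5.73e-05) and without it (0.68 ± 0.090, adjusted p = 3.58e-05). Its treated arrays gave 1597, 1291 and 1347 in Rb null and 889, 871 and 988 in wildtype cells. Sp3 rose after cisplatin in Rb null cells (log2 0.72 ± 0.13) and was higher there than in treated wildtype cells (0.74 ± 0.13). The bone gene Sp7 was called higher after cisplatin in wildtype cells (adjusted p = 0.0464), where its treated signals of 123.9 to 171.7 overlapped untreated signals of 55.0 to 126.6, and Klf16 was not called in any comparison.

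Of the ERK5 and MEF2 genes upstream of Klf2 and Klf4, 5 of 8 were tested. After cisplatin 2 fell in Rb null cells and 2 in wildtype cells, and 0 rose, with median log2 values of -0.58 and -0.37. Over all genes 36.9% were called in Rb null cells (20.3% lower) and 27.5% in wildtype cells (12.7% lower). With 5 genes tested, counts of 2 are too few to be read as a result about this route. Map2k5, which encodes the kinase MEK5 that activates ERK5, was at 83.0 ± 9.38 in treated Rb null and 149 ± 4.31 in treated wildtype cells, against 448 ± 10.3 in untreated Rb null and 434 ± 45.6 in untreated wildtype cells. It fell by 1.47 on the log2 scale in wildtype cells (± 0.11). It was also called lower in Rb null cells, and the difference of the effects was called (adjusted p = 0.00107), but the treated Rb null signals were in the range of probe sets below the filter, so no exact fold is given. Mapk7, the gene of ERK5 itself, was not called in any comparison (log2 -0.19 to 0.42). Mef2a fell in Rb null cells (log2 -0.94 ± 0.12) and Mef2d in wildtype cells (-0.64 ± 0.18).

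Genes whose products bind or degrade KLF proteins were tested for 10 of the 11 measured. In Rb null cells 2 rose and 3 fell after cisplatin, in wildtype cells 2 rose and 1 fell, and the effect differed between genotypes for 5, beside 36.9%, 27.5% and 23.7% of all genes. Ctbp2, a corepressor of Klf3, averaged 537 ± 65.7 in treated Rb null and 1241 ± 155 in treated wildtype cells, against 1187 ± 72.2 in untreated Rb null and 1188 ± 181 in untreated wildtype cells. It fell in Rb null cells (log2 -1.14 ± 0.12) and the difference of the effects was called (-1.20 ± 0.17, adjusted p = 7.44e-05). Sin3a, the scaffold of the corepressor of Klf9, Klf10 and Klf13, was lower in Rb null cells after cisplatin (log2 -0.66 ± 0.079) and higher there without it (0.66 ± 0.079). The ubiquitin ligase genes Fbxw7 and Wwp1, whose products target Klf5 protein, both rose after cisplatin. Fbxw7 averaged 1661 ± 151 in treated Rb null and 742 ± 53.0 in treated wildtype cells, against 357 ± 34.5 in untreated Rb null and 384 ± 27.5 in untreated wildtype cells. The rise was log2 2.19 ± 0.097 in Rb null and 0.93 ± 0.097 in wildtype cells.

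Among 30 genes reported as KLF targets in other systems, 24 were tested. After cisplatin 9 rose and 5 fell in Rb null cells (median log2 0.14) and 8 rose and 6 fell in wildtype cells (median 0.12), beside 36.9% and 27.5% of all genes called. In the genotype comparison 7 were higher and 3 lower after cisplatin, and 3 were higher and 1 lower without it, beside 23.0% and 13.1% of all genes. Thbd, the endothelial anticoagulant gene activated by Klf2 and Klf4, rose in Rb null (log2 1.26 ± 0.075) and wildtype cells (1.98 ± 0.075), with a called difference of -0.72 ± 0.11. Edn1, which Klf2 represses in endothelium, was higher in Rb null than in wildtype cells after cisplatin (log2 0.92 ± 0.13) and lower without it (-0.76 ± 0.13). Edn1 fell after cisplatin in both genotypes, with log2 -0.74 ± 0.13 in Rb null cells and -2.41 ± 0.13 in wildtype cells. Klf2 also fell in Rb null cells, and its part in the Edn1 values was not tested. Smad7, which Klf10 represses in other systems, rose in Rb null cells (log2 0.88 ± 0.093). In wildtype cells its value was 0.14 ± 0.093, not called, and the difference of 0.74 ± 0.13 was called. The part of Klf10 in the Smad7 values was not tested. Ccl5 was at 155, 125 and 114 on treated Rb null and 20.6, 7.4 and 17.0 on treated wildtype arrays, against 299, 259 and 249 on untreated Rb null and 210.5, 181 and 182 on untreated wildtype arrays. It fell by 0.99 on the log2 scale in Rb null cells (± 0.21) and was also called lower in wildtype cells, where the treated signals were near the pseudocount of 10.4 and give no exact fold. Cdkn1a, the p21 gene activated by Klf4 and Klf6, had log2 values of 0.49 ± 0.056 in Rb null and 0.40 ± 0.056 in wildtype cells, below the minimum size.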

How the data were processed

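RNA of the 4 groups was measured on 12 arrays, 3 per group, grouped by the labels. The deposited files hold a linear intensity for each probe set, which the authors made with MAS5, per the submitters' processing notes. Its version, scaling target and detection calls are not given in the sources used here. Array means, with 2% of values trimmed from both tails, were 500.1 to 500.2, and the deposited scale was kept. Precision is limited by the number of arrays and, more so, by the single RNA sample of each group. The platform annotation gave 1 symbol for 20393 probe sets, several for 691 and none for 1555.

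A pseudocount of 10.4 (the 10th percentile over the whole table) was added before taking log2, so fold changes of dim genes are understated. The 64 control probe sets and the dimmest 40% by mean were dropped from 22690, leaving 13575 to be tested. Genes use 1 probe set, that with the highest mean, and probe sets with cross-hybridizing suffixes only where there was no other. A mean per group was fitted with limma 3.58.1 in R 4.3.3 (lmFit, eBayes with a trend, 8 residual and 6.09 prior degrees of freedom), two-sided. The procedure was tested on simulated data.

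The members, the other gene lists (from general knowledge) and the thresholds were chosen with earlier results of these data known. All 10 members were to be named, with values for each array where a probe set was called, and for the 3 with the widest range of group means the 4 genes most like each. Genes named from the other lists, some of them not called, were chosen after their values were seen. Promoter sequences are from RefSeq. Alternatives were other pseudocounts, filters, scalings, fold minimums, fewer groups, another probe set, a replicate block and leaving out each array; a fit without the untreated wildtype group was added after seeing the data. Arrays that share a number or letter correlated at -0.19 to 0.11 in their deviations from the group means, so they were not treated as pairs. Figures were drawn with matplotlib 3.10.9 in Python 3.11.15.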

Additional observations from a re-analysis of the deposited data

Results flagged for a closer look

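The cisplatin effect differed between genotypes, by the interaction term of limma, on 5 of the 20 tested probe sets of the family. Over all tested probe sets the share was 23.1%, and the count is near it. For Klf2 the effect in Rb null minus that in wildtype cells was log2 -1.38 ± 0.20 (adjusted p = 0.00012). For Klf4 it was -0.61 ± 0.18 on 1417394_at (adjusted p = 0.0169) and was not called on the gene's other probe set. For Klf9 it was 0.97 ± 0.16 on 1428289_at (adjusted p = 0.000244) and 0.84 ± 0.15 on 1456341_a_at (adjusted p = 0.000482). For Klf13 it was -0.94 ± 0.26 on 1432543_a_at (adjusted p = 0.0105) and was not called on 1436316_at. Each of these values uses the untreated wildtype arrays, which differ from the others in sex-linked transcripts; the part of that difference in these values cannot be told apart.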

How the results depend on the processing

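The number of the 9 genes called moved mainly with the size minimum, on which values near 1.5-fold depend. Without a fold minimum 7 were called for cisplatin in Rb null cells and 7 in wildtype cells. Likewise 6 were called for genotype after cisplatin, 4 without it and 5 for the difference of the effects. With a 2-fold minimum these were 1, 1, 1, 1 and 1. Shares over all genes were not counted at these minimums, so the counts are no result about the family. For genotype without cisplatin 2 were called, in place of 1, with a pseudocount of 1, under quantile normalization, under median centring and on the other probe sets, Klf9 being added as lower each time. For the difference of the effects 1 was called, in place of 2, with a pseudocount of 45.8. Leaving out each array in turn gave 4 to 4, 2 to 3, 3 to 4, 1 to 2 and 1 to 3 in the same order. The Klf13 value for cisplatin in wildtype cells, log2 0.14 on its brighter probe set, reversed to -0.79 on the other; the cause was not tested. With a replicate block, possible for genotype and for the difference of the effects, 3, 1 and 2 genes were called, as without it. No paired analysis was possible for the cisplatin comparisons because untreated arrays carry numbers and treated ones letters. Without the untreated wildtype group the 3 and 4 calls that do not use it were again 3 and 4. Median centring moved the median of all probe sets in the Rb null cisplatin comparison to 0.12, from -0.023, and added Klf3 as higher (log2 0.60). Klf10 was added as higher for genotype after cisplatin by median centring and by quantile normalization, which also added Klf7 as lower for cisplatin in wildtype cells (log2 -0.60). With median centring, 56.2% of the probe sets called for cisplatin in Rb null cells were higher, in place of 43.0%. The share was 51.4% (41.6% before) in the genotype comparison after cisplatin and 51.5% (37.5% before) in the difference of the effects. For the difference of the effects, median centring also ended the Klf4 call (log2 -0.51) and added Klf9 as higher (0.62). Weak signals limit what can be said of Klf15 and of the 6 other probe sets below the filter.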

Other observations

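Sp6, an SP factor of skin and tooth epithelium, lay below the filter on average but not on every array. Its signals were 243, 156 and 259.8 on cisplatin-treated Rb null arrays and 10.2, 8.4 and 67.9 on cisplatin-treated wildtype arrays, against 12.0, 8.2 and 6.5 on untreated Rb null and 3.6, 4.0 and 4.6 on untreated wildtype arrays. It was not tested, and it was singled out after its values were seen.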
